A study of Mus musculus with 4 samples.

Results

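Glutathione transferases are enzymes that join glutathione to reactive, electrophilic molecules. The genes followed here numbered 10: the alpha class genes Gsta2, Gsta3 and Gsta4, the mu class gene Gstm1, the omega class gene Gsto1, the theta class gene Gstt1, the kappa class gene Gstk1, and the membrane-bound microsomal genes Mgst1, Mgst2 and Mgst3. They were chosen by symbol, with the differences between the 2 mouse lines of this series already known, so that those differences are given as a description and were not tested. The 10 genes had 17 probe sets, out of 18193 named genes and 45037 probe sets on the array, controls aside. In the platform annotation 1 further probe set listed Gsta2 together with other genes.

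The samples were basal cells of tail skin epidermis from mice of CD-1 background, with 2 arrays for each line. In InvCREER mice the involucrin promoter drove a Cre recombinase that tamoxifen activates, and 10 ug of tamoxifen was injected. In K14CREER mice the keratin 14 promoter drove it, and 1 ug was injected. Both lines also carried RosaYFP, a reporter that Cre switches on, and the sort took living YFP-positive cells with high alpha6 integrin and no CD34 at their surface. Dose and Cre line therefore cannot be told apart. Titles place the harvest at 3.5 days after induction and the protocol at 4 days. The labels used here give no age, and do not state if separate mice lie behind the arrays of a line. The p-values thus rest on the spread between these arrays alone, and that spread may be technical.

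Conjugation to glutathione makes an electrophile more soluble and ready for export, after which the conjugate is trimmed to a mercapturate. The cytosolic enzymes work as dimers and fall into classes by sequence, while the microsomal ones are unrelated membrane proteins of the MAPEG family, some of which also make eicosanoids. Several transferase genes are known targets of NRF2, a transcription factor that binds antioxidant response elements. In skin these enzymes belong to the defence against chemicals, ultraviolet light and oxidised lipids.

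Of the 4 transferase genes with the highest InvCREER minus K14CREER differences, Gsta2, Mgst1, Mgst2 and Gsta3, the 250 bases before the annotated transcription start are shown. The letters come from RefSeq, build GRCm38.p6, and run 5′ to 3′ on the strand of the gene. Windows of 9 of the 10 genes were in the table, and Gsta4 had none. Capitals mark TGACNNNGC, the core of the antioxidant response element, on either strand.
Gsta2, chr9:78347146-78347395, minus strand: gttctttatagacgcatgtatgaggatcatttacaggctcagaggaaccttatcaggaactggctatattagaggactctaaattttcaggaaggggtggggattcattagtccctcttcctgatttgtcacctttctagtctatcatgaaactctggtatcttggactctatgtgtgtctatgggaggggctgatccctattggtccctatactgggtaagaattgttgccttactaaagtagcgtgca
Mgst1, chr6:138140277-138140526, plus strand: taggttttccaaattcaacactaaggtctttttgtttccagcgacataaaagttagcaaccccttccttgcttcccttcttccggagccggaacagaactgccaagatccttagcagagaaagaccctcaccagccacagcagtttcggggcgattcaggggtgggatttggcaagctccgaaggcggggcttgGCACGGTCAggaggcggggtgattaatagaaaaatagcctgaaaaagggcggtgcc
Mgst2, chr3:51660929-51661178, plus strand: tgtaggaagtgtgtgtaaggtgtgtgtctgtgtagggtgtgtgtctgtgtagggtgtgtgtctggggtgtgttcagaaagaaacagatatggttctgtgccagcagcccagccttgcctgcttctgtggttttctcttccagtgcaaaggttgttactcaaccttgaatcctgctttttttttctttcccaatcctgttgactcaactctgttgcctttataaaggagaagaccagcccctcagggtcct
Gsta3, chr1:21240335-21240584, plus strand: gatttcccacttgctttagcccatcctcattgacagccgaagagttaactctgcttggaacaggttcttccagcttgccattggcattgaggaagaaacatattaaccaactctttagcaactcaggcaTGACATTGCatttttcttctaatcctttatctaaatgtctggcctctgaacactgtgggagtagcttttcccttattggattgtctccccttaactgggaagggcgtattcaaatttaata

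The core stood in 2 of the 9 genes, once in Gsta3, on the gene's strand from position -121 relative to the start, and once in Mgst1, on the opposite strand from position -56. Neither the Gsta2 window nor that of Mgst2 held these letters. Only the 250 bases before the start were searched, so an element elsewhere could not be seen. A match is no rarity, as 13.9% of the 9127 genes that passed the intensity filter and had a window held the core, and 10.2% of all 32851 windows. Mgst1 had a second annotated start, whose window held none.

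Before the values, 1 array of each line needs a remark. InvCREER 1 stood apart from the other arrays in sex-linked genes, with Xist, the X-inactivation RNA, at 12.56 against 8.26 on InvCREER 2 and 7.25 and 5.44 on the K14CREER arrays, and with the Y-linked Uty at 4.70 against 7.85 on InvCREER 2 and 7.19 and 7.48 on the K14CREER arrays. The 3′ minus 5′ gap of the Actb control probe sets, which widens as RNA degrades, was also widest there, at 1.24 in log2 units against 0.77 on InvCREER 2 and 0.94 and 0.68 on the K14CREER arrays. Each transferase difference is therefore given with and without this array. K14CREER 1 stood apart in Cd34, the gene of the surface protein that the sort excluded, which was at 3.88 and 3.66 on the InvCREER arrays, against 6.07 on K14CREER 1 and 3.59 on K14CREER 2. It was also highest in the fibroblast collagen genes Col3a1 and Col1a2. Col3a1 was at 4.43 and 3.73 on the InvCREER arrays, against 6.12 on K14CREER 1 and 3.95 on K14CREER 2. Col1a2 was at 5.80 and 5.41 on the InvCREER arrays, against 6.70 on K14CREER 1 and 5.17 on K14CREER 2. With K14CREER 1 left out the difference was 3.09 for Gsta2, 1.28 for Mgst1, 0.86 for Mgst2, 0.91 for Gsta3 and -0.12 for Gstm1, and no transferase gene changed sign. The basal keratin gene Krt14, which marks the labelled cell type, was at 13.83 ± 0.02 in InvCREER and 14.16 ± 0.02 in K14CREER cells (SD, n = 2 per line). Itga6, the gene of the alpha6 integrin used in the sort, was at 11.62 and 11.77 on the InvCREER arrays. On the K14CREER arrays it was at 12.38 and 12.41 (-0.70, adjusted p = 0.0564 by limma), and the lines did not overlap. Ivl, the gene whose promoter drives Cre in InvCREER, lay under the filter value by its mean over the arrays, at 4.78 and 5.06 in InvCREER and 4.58 and 6.23 in K14CREER cells, and K14CREER 2 alone was above it. All values are RMA summaries on a log2 scale, so that 1 unit is a 2-fold difference. They allow a gene to be compared between arrays but not one gene with another. The filter value, 5.42, is the median probe set, and the brightest probe set stands for a gene that has several.

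Gsta2 was far higher in InvCREER cells, Mgst1 and Mgst2 were over 2-fold higher, and the other 7 transferase genes differed by less than 2-fold. Of the 10 genes 7 had higher and 3 lower means in InvCREER, against 46.6% higher among all 18193 named genes. Their median difference was 0.38 in log2 units, against -0.02 over all named genes. The 2 lines did not overlap in 6 of the 10, and did not overlap in 41.5% of all named genes. Gstt1 lay under the filter value, so that 9 passed it. The fit over all 22519 probe sets that passed called 216 of them (0.959%) at an adjusted p under 0.05 by limma. It called 1 of these 9, Gsta2, beside 1.33% of the 11270 named genes that passed. With the array number as a replicate block, or with a stricter filter on dim probe sets, Mgst1 and Mgst2 were called as well, and without InvCREER 2 Gsta3 and Mgst1 were. The choice of the genes used these differences, so nothing is read from those counts.

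**Figure D1:**
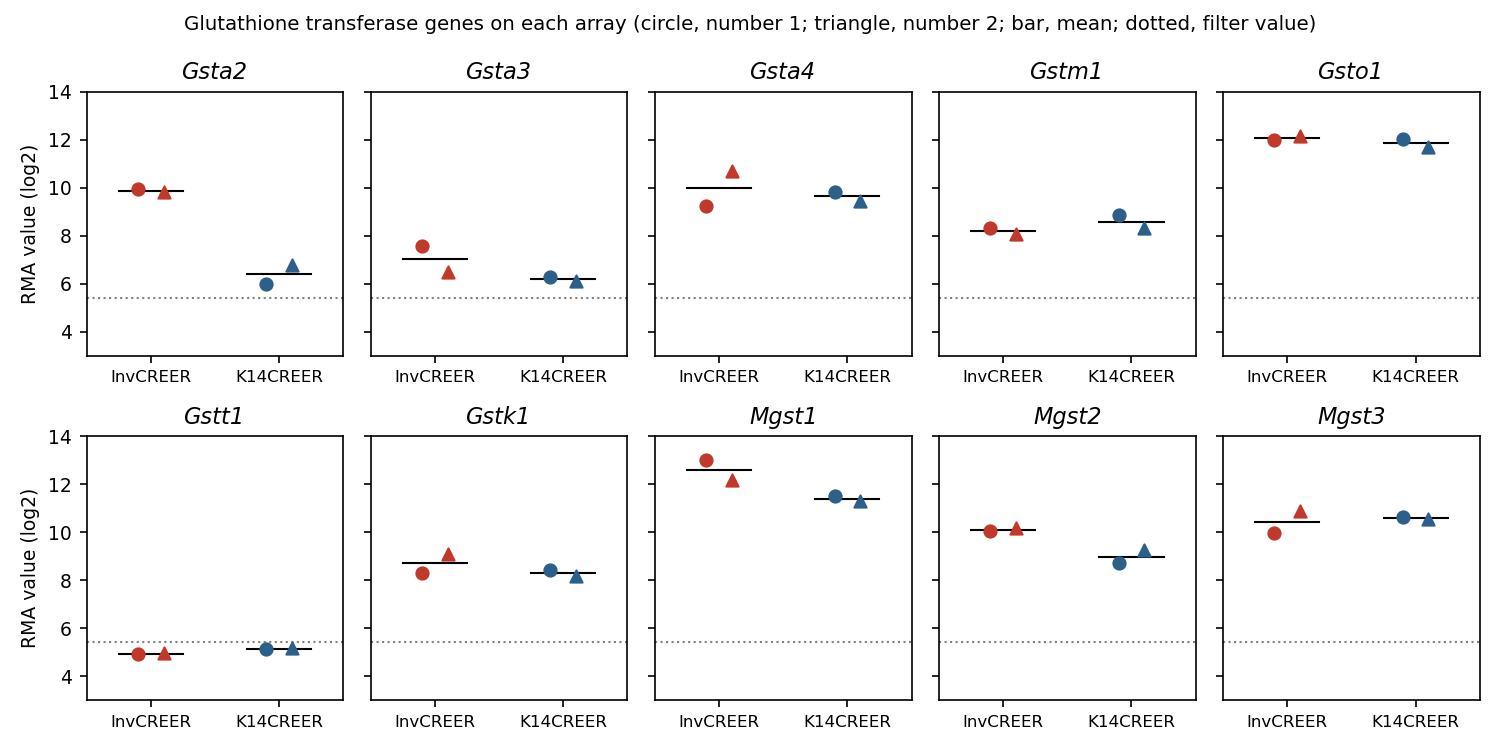
RMA values (log2) of the 10 transferase genes on each array, 1 panel per gene, with InvCREER left of K14CREER, circles for arrays numbered 1, triangles for arrays numbered 2, a bar for the mean of 2 arrays and a dotted line at the filter value of 5.42. The 2 lines are widely separated for Gsta2, and Gstt1 lies under the dotted line on all 4 arrays.

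Gsta2 encodes an alpha class transferase that is inducible by electrophiles. It was at 9.94 and 9.83 on InvCREER 1 and 2, against 6.00 and 6.79 on K14CREER 1 and 2. The InvCREER arrays lay close together and the K14CREER arrays lay further apart, both of them still above the filter value. The difference was 3.48 (SE 0.31), or 11.2-fold, and it was the 26th highest of the 22519 probe sets that passed. With InvCREER 1 left out it was 3.43, and over all 4 ways of leaving out 1 array it ran from 3.09 to 3.88. A second probe set, which the annotation lists for 3 genes with Gsta2 among them, cannot be assigned to one of them. It was at 8.73 and 9.93 on the InvCREER arrays, against 5.92 and 6.68 on the K14CREER arrays. Alpha class genes are close copies of each other, so that part of the Gsta2 signal may come from a copy, which was not tested.

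Gsta3, another alpha class enzyme, known in mouse for conjugating aflatoxin epoxide, was at 7.60 and 6.50 on InvCREER 1 and 2, against 6.27 and 6.14 on K14CREER 1 and 2. The lines did not overlap, but InvCREER 2 lay only just above K14CREER 1. The difference was 0.85 (SE 0.38) with all arrays and 0.30 without InvCREER 1. Its second probe set lay under the filter value on every array, with a difference of 0.46, or -0.00236 without InvCREER 1.

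Gsta4, which favours the lipid peroxidation product 4-hydroxynonenal, ran the other way between the InvCREER arrays. It was at 9.27 on InvCREER 1 and 10.72 on InvCREER 2, against 9.85 and 9.44 on K14CREER 1 and 2. InvCREER 1 was the lowest and InvCREER 2 the highest of the 4 arrays, so the lines overlapped. The mean difference of 0.35 (SE 0.46) became 1.08 without InvCREER 1 and -0.38 without InvCREER 2.

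The 3 alpha class genes thus showed 3 different orders of the InvCREER arrays, level for Gsta2, InvCREER 1 higher for Gsta3 and InvCREER 2 higher for Gsta4.

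Gstm1, of the mu class, was lower in InvCREER cells on each of its 4 probe sets. On the brightest it was at 8.31 and 8.08 on the InvCREER arrays, against 8.87 and 8.31 on the K14CREER arrays, with InvCREER 1 and K14CREER 2 practically level. The difference was -0.40 (SE 0.27), and the 4 probe sets ran from -0.34 to -0.44. One of these probe sets lay under the filter value, and the lines overlapped on one other. Without K14CREER 1 the difference was -0.12, and without InvCREER 1 it was -0.51.

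Gsto1, of the omega class, which reduces dehydroascorbate and mixed disulfides, had 2 bright probe sets that disagreed in sign. The brighter gave 12.02 and 12.17 on the InvCREER arrays, against 12.05 and 11.70 on the K14CREER arrays, a difference of 0.22 (SE 0.15). The other gave 11.43 and 12.10 on the InvCREER arrays, against 11.81 and 11.75 on the K14CREER arrays, a difference of -0.01 (SE 0.22). The lines overlapped on both, and no direction is given for Gsto1. Without InvCREER 1 both were above 0, at 0.29 and 0.33.

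Gstt1, of the theta class, which handles small halogenated compounds, was at 4.91 and 4.98 on the InvCREER arrays, against 5.11 and 5.16 on the K14CREER arrays. The difference was -0.19, and -0.16 without InvCREER 1. These values lie under the filter value, where background limits what a difference shows. Gstk1, the kappa class enzyme of mitochondria and peroxisomes, was at 8.30 and 9.10 on InvCREER 1 and 2, against 8.41 and 8.18 on K14CREER 1 and 2. InvCREER 2 stood above the other 3 arrays. The difference was 0.40 (SE 0.31), 0.81 without InvCREER 1 and 0.00277 without InvCREER 2.

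Among the microsomal enzymes Mgst1, which sits in the endoplasmic reticulum and the outer mitochondrial membrane, was at 13.00 and 12.17 on InvCREER 1 and 2, against 11.50 and 11.31 on K14CREER 1 and 2. Both InvCREER arrays lay above both K14CREER arrays, InvCREER 1 the further. The difference was 1.18 (SE 0.26), or 2.26-fold, and 0.76 without InvCREER 1. A second Mgst1 probe set was dim, at 3.62 to 4.02 on the 4 arrays, and differed by -0.09.

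Mgst2, which like leukotriene C4 synthase can join glutathione to leukotriene A4, was at 10.06 and 10.16 on the InvCREER arrays, against 8.70 and 9.25 on the K14CREER arrays. The InvCREER arrays were nearly level and did not overlap with the K14CREER arrays. The difference was 1.13 (SE 0.24), or 2.19-fold, and 1.18 without InvCREER 1. Mgst3, a microsomal transferase with glutathione peroxidase activity, was at 9.95 and 10.88 on InvCREER 1 and 2, against 10.61 and 10.56 on K14CREER 1 and 2. The 2 InvCREER arrays lay on either side of the K14CREER arrays. Its difference was -0.17 (SE 0.30), and 0.29 without InvCREER 1.

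**Figure D2:**
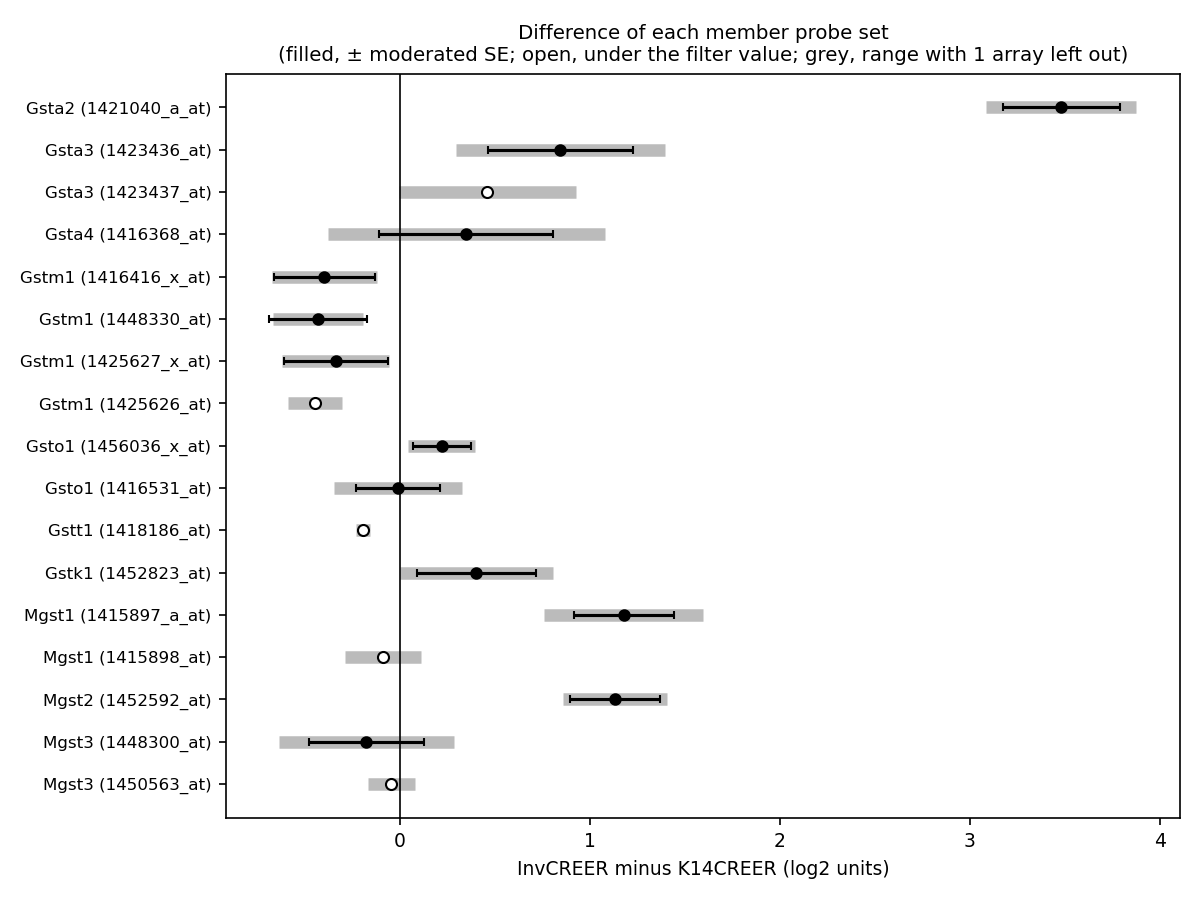
InvCREER minus K14CREER difference (log2 units) of each of the 17 probe sets, with the gene and probe set down the axis. Filled points carry the moderated SE, open points lay under the filter value, and grey bars span the values with 1 array left out: the Gsta2 bar runs from 3.09 to 3.88, while those of Gsta4 and Mgst3 cross 0.

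Within the InvCREER line the genes split by array. Gsta3 and Mgst1 were higher on InvCREER 1 than on InvCREER 2, by 1.10 and 0.83. Gsta4, Mgst3 and Gstk1 were lower on InvCREER 1, by differences of -1.46, -0.93 and -0.80. Gsta2 and Mgst2 hardly differed between these arrays, at 0.11 and -0.10. The K14CREER arrays differed most for Gsta2, at -0.79 for array 1 minus array 2, then for Gstm1 at 0.56 and Mgst2 at -0.55. Over the 4 arrays, after each gene was centred on its own mean, Gsta3 and Mgst1 were the closest pair of transferase genes by Euclidean distance, at 0.38 in log2 units, followed by Gsta4 and Gstk1 at 0.48. Gsta2 and Gstm1, the genes with the highest and lowest difference above the filter, were the farthest apart, at 4.00.

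Marker lists of other cells were read beside these values. Suprabasal keratinocyte markers, all 10 that passed with higher means in InvCREER, averaged 10.96 and 11.22 on the InvCREER arrays, against 9.42 and 9.45 on the K14CREER arrays. Like Gsta2 and Mgst2 they were close on the 2 InvCREER arrays. Tgm1 of this list had a K14CREER mean under the filter value and passed through its InvCREER values. Flg and Ivl of this list lay under the filter value by their mean over the arrays, with differences of 0.06 and -0.49. Basal markers, all 8 with lower means in InvCREER, averaged 11.73 and 11.54, against 12.60 and 12.43. Sebaceous gland markers, all 8 with higher means in InvCREER, averaged 10.37 on InvCREER 1 and 8.73 on InvCREER 2, against 7.34 and 6.84 on the K14CREER arrays. Among them Mc5r, a receptor of sebocytes, was at 7.36 and 5.95 in InvCREER, against 5.04 and 4.75 in K14CREER cells. The K14CREER means of Mc5r and Pparg lay under the filter value, so these genes passed through their InvCREER values. Langerhans cell and myeloid markers, all 6 that passed with higher means in InvCREER, averaged 7.96 and 6.49, against 5.78 and 5.43. The leukocyte gene Ptprc lay under the filter value on every array. Tyrobp and Fcer1g of this list lay under it by their mean over the arrays, with differences of 0.90 and 0.27. Cd207 and Ctss also passed through their InvCREER values, with K14CREER means under the filter value. For genes that pass in this way a higher InvCREER mean is fixed by the filter. The sebaceous list and the Langerhans and myeloid list were both higher on InvCREER 1 than on InvCREER 2, as were Gsta3 and Mgst1. Without InvCREER 1 the differences of Gsta2 and Mgst2 were 3.43 and 1.18, close to those with it. Dermal fibroblast markers, all 4 that passed with lower means in InvCREER, averaged 7.52 and 7.35, against 9.01 and 8.18. The lines did not overlap for Sparc (-2.36) and Dcn (-1.87), but they overlapped for Col1a2 (-0.33) and Vim (-0.07). Col1a1, Col3a1, Pdgfra, Lum and Twist2 were under the filter value by their mean over the arrays. Upper follicle and bulge markers split, with 4 of the 7 that passed higher and 3 lower in InvCREER by their means. Lgr6, a stem cell marker of the upper follicle, fell, at 6.67 and 6.55 in InvCREER, against 8.47 and 8.34 in K14CREER cells (-1.79, adjusted p = 0.0292 by limma). Krt79, a keratin of the upper follicle and its duct, was at 11.94 on InvCREER 1 and 10.06 on InvCREER 2, against 9.26 and 8.79 on the K14CREER arrays (1.98, adjusted p = 0.182 by limma). Like Gsta3 and Mgst1 it was highest on InvCREER 1, and without that array its difference was 1.04. Of the melanocyte markers 3 passed and 0 were called by limma, with 0 at an unadjusted p under 0.05. Fewer cells of a type and less RNA per cell cannot be told apart in these sorted pools, and the part of other cells in the transferase values was not tested.

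**Figure D3:**
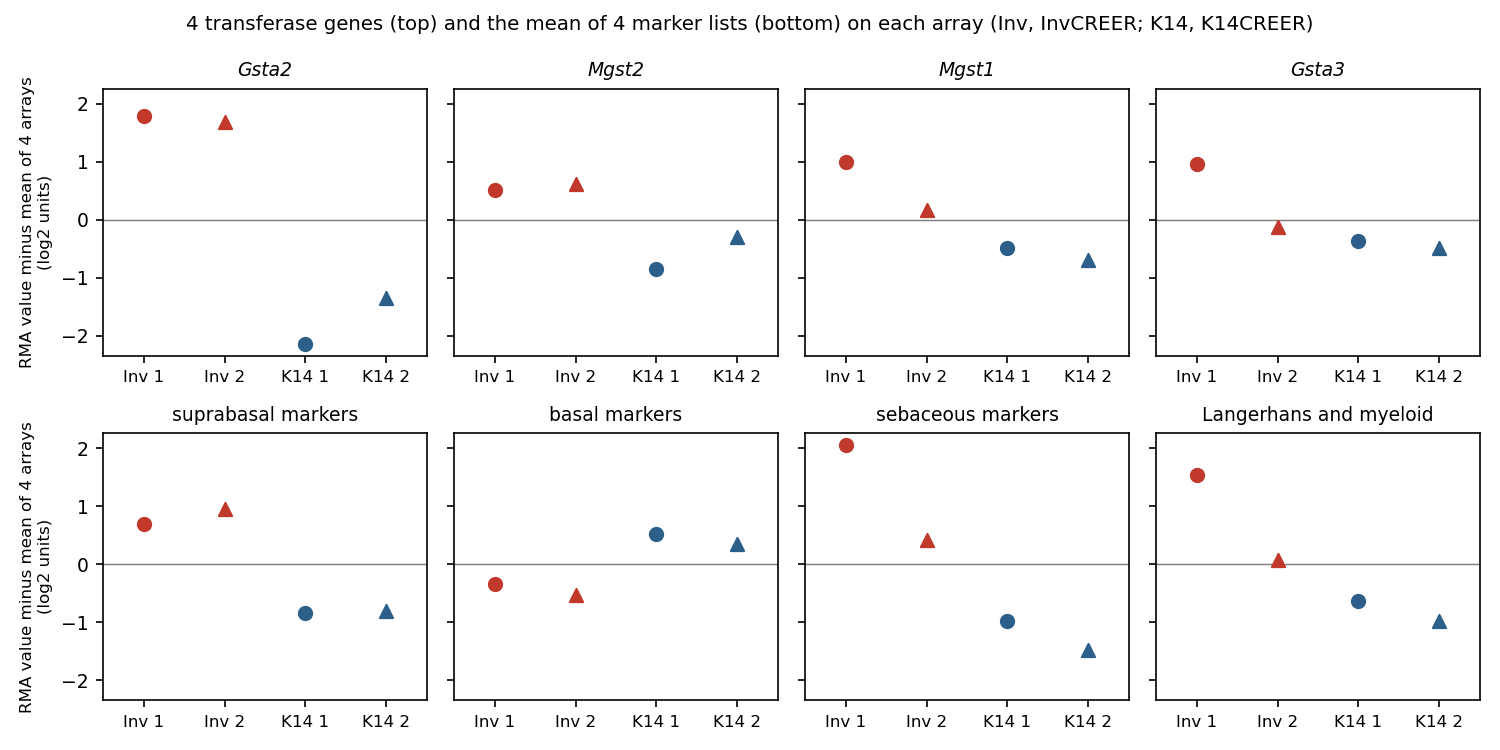
RMA value minus the mean of 4 arrays (log2 units) of Gsta2, Mgst2, Mgst1 and Gsta3 (top) and of the mean of 4 marker lists (bottom) on InvCREER 1 and 2 (Inv) and K14CREER 1 and 2 (K14). Gsta2 and Mgst2 are nearly level between the InvCREER arrays, as are the suprabasal markers, while Mgst1, Gsta3, the sebaceous and the Langerhans and myeloid markers are highest on InvCREER 1.

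By the same distance, the 5 other genes closest to Gsta2 were Selenbp1, Lipm, Cttnbp2, Bbox1 and Muc15, at 0.49 to 0.64. Selenbp1, a selenium-binding protein, was at 12.52 and 12.58 on the InvCREER arrays, against 9.23 and 9.51 on the K14CREER arrays. Lipm, a lipase of the epidermis, was at 8.51 and 8.42, against 4.66 and 6.09. Both were nearly level on the InvCREER arrays and lower on K14CREER 1 than on K14CREER 2. Cttnbp2 was not level, at 7.60 and 8.32 on InvCREER 1 and 2. These genes were picked as the closest to Gsta2 over the same arrays, so a shared pattern is fixed by that choice. The K14CREER means of Lipm, Cttnbp2 and Muc15 lay under the filter value. The 5 genes closest to Gstm1 were Caskin2, Galnt2, C2cd3, Tmem184b and Lrrfip2, at 0.04 to 0.07.

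The rest of the glutathione system was read from 6 gene lists, tested over all probe sets. The lists were drawn up by function, but with earlier results of these data known, so their counts are no independent evidence. Of 100 genes 88 had a probe set named for them alone and 76 passed the filter. Among these 76, 3 were called higher in InvCREER and 0 were called lower (limma adjusted p). Among all named genes that passed, 0.958% were called higher and 0.373% lower. By the same fit 26 of the 76 had an unadjusted p under 0.05. Of all 22519 probe sets that passed, 3133 did. That figure counts probe sets, while the 76 are genes, each read from its brightest probe set. The units differ and no such count over named genes is given, so the figures are not compared. The counts of unadjusted p in the single lists below are also counts of genes and have no matching background here. Means were higher for 38 and lower for 38, with a median difference of -0.00185. Ggct, Ggt6 and Sult2b1 were those called higher.

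Of the other members of the transferase and MAPEG families 14 passed the filter, 0 were called by limma and 4 had an unadjusted p under 0.05. Gstm2, a mu class neighbour of Gstm1 in the genome, was at 8.29 and 8.42 on the InvCREER arrays, against 9.61 and 9.68 on the K14CREER arrays. Its difference of -1.29 (SE 0.20) just missed the threshold (adjusted p = 0.0511 by limma), and it passed in 8 of 14 alternative settings. Gstm5, of the same gene cluster, lay the other way, at 9.31 and 9.44 on the InvCREER arrays, against 8.41 and 8.56 on the K14CREER arrays (0.89, adjusted p = 0.112 by limma). The remaining mu genes that passed, named here after their values were seen, were Gstm4 at 0.52, Gstm3 at -0.01 and Gstm7 at 0.000478. Mu class genes can share probes with their close copies, and how much they did was not tested. Gstp1, the abundant pi class transferase of epithelia, was at 11.43 and 10.81 on the InvCREER arrays, against 11.92 and 11.57 on the K14CREER arrays (-0.63, adjusted p = 0.309 by limma). Ptges, a MAPEG enzyme that makes prostaglandin E2, was at -0.76 (adjusted p = 0.226 by limma).

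Among 10 genes of glutathione synthesis and supply, Ggct was called higher and 0 were called lower by limma. Means were higher for 2 and lower for 8, with a median difference of -0.075, and 3 had an unadjusted p under 0.05. Ggct encodes gamma-glutamylcyclotransferase, which releases 5-oxoproline from gamma-glutamyl amino acids. It was at 11.65 and 11.62 on the InvCREER arrays, against 9.59 and 10.09 on the K14CREER arrays, and rose by 1.79 (SE 0.20, adjusted p = 0.0213 by limma). The call held with any 1 of the 4 arrays left out. Gclc, the catalytic subunit of the rate-limiting synthetic enzyme, was at 9.63 and 9.29 on the InvCREER arrays, against 9.75 and 9.45 on the K14CREER arrays (-0.14, adjusted p = 0.885 by limma). Cth, which makes cysteine from cystathionine, was at -1.09 (adjusted p = 0.120 by limma), and Slc3a2, a subunit of amino acid exchangers, at -0.88 (adjusted p = 0.177 by limma).

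In the list of glutathione recycling and peroxide or aldehyde reduction 0 of 17 genes were called by limma, and 7 had an unadjusted p under 0.05. Me1, the malic enzyme that supplies NADPH, was at 10.19 and 9.20 on the InvCREER arrays, against 7.72 and 7.88 on the K14CREER arrays (1.90, adjusted p = 0.0679 by limma). Glrx, glutaredoxin, was at 1.20 (adjusted p = 0.0811 by limma), Gpx8, a peroxidase of the endoplasmic reticulum, at -1.29 (adjusted p = 0.0590 by limma) and Nnt, the mitochondrial transhydrogenase, at -1.22 (adjusted p = 0.163 by limma).

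Of 12 genes of conjugate export and the mercapturate pathway Ggt6 was called higher and 0 were called lower by limma. Means were higher for 8 and lower for 4. Ggt6, of the gamma-glutamyltransferase family, was at 9.54 and 9.54 on the InvCREER arrays, against 8.06 and 8.12 on the K14CREER arrays, and rose by 1.45 (SE 0.20, adjusted p = 0.0384 by limma). That call was lost without K14CREER 1 and without K14CREER 2. Kyat1, a cysteine conjugate beta-lyase, was at 1.18 (adjusted p = 0.140 by limma), the conjugate exporter gene Abcc3 at -0.61 (adjusted p = 0.222 by limma) and the leucine aminopeptidase gene Lap3 at 0.53 (adjusted p = 0.249 by limma).

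Among 13 NRF2 regulators and inducible enzymes 0 were called by limma, 2 had an unadjusted p under 0.05, and the median difference was -0.22. Nqo1, a quinone reductase widely used as an NRF2 readout, was at 6.59 and 7.13 on the InvCREER arrays, against 7.50 and 7.73 on the K14CREER arrays (-0.75, adjusted p = 0.292 by limma). The lines did not overlap for Nqo1. Of the 13 genes 6 had higher and 7 lower means in InvCREER, and any part of NRF2 in the transferase values was not tested. Nfe2l1 was at 1.00 (adjusted p = 0.243 by limma), or 0.62 without InvCREER 1, and the haem oxygenase gene Hmox1 at 0.34 (adjusted p = 0.600 by limma). The K14CREER mean of Hmox1, 5.31, lay under the filter value, so Hmox1 passed through its InvCREER values and its sign is fixed by the filter. The small Maf gene Maff was at 6.42 and 6.16 on the InvCREER arrays, against 7.58 and 6.47 on the K14CREER arrays (-0.73, adjusted p = 0.502 by limma). K14CREER 1 was the high one, and the Maff difference was -0.18 without it.

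Of 10 other xenobiotic enzymes and receptors Sult2b1 was called higher and 0 were called lower by limma. Means were higher for 5 and lower for 5, and 6 had an unadjusted p under 0.05. Among the lower ones, named after their values were seen, were Ephx1 at -0.73 (adjusted p = 0.347 by limma) and Cyp2s1 at -0.60 (adjusted p = 0.402 by limma). The lines did not overlap for either. Sult2b1, the sulfotransferase that makes cholesterol sulfate in the epidermis, was at 8.69 and 9.45 on the InvCREER arrays, against 6.38 and 6.23 on the K14CREER arrays, and rose by 2.77 (SE 0.31, adjusted p = 0.0211 by limma). Its call was lost without K14CREER 1 and without K14CREER 2. Cyp2b19, a cytochrome P450 of differentiating keratinocytes, was at 8.31 and 6.18 on the InvCREER arrays, against 4.40 and 4.05 on the K14CREER arrays (3.01, adjusted p = 0.0978 by limma). Both K14CREER values lay under the filter value, so Cyp2b19 passed through its InvCREER values. Cyp1b1, another P450, was at 8.01 and 6.63 on the InvCREER arrays, against 5.91 and 5.04 on the K14CREER arrays (1.84, adjusted p = 0.169 by limma). Both P450 genes were highest on InvCREER 1, and without it the differences were 1.95 for Cyp2b19 and 1.15 for Cyp1b1. Aldh3b2 was at 1.85 (adjusted p = 0.0514 by limma).

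**Figure D4:**
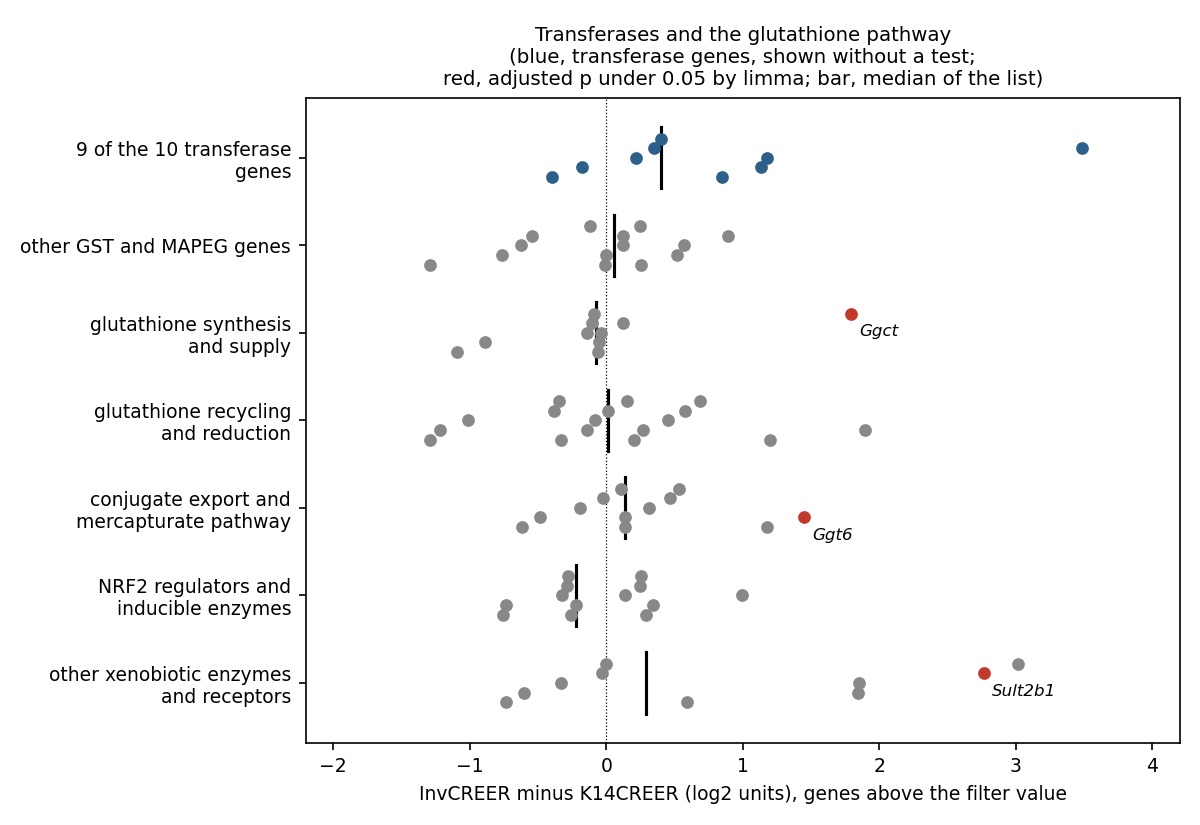
InvCREER minus K14CREER difference (log2 units) of each gene above the filter value, by list, with the 9 transferase genes that passed in blue, genes called by limma in red, the others in grey and a bar at the median. Gsta2 lies at 3.48, and Ggct, Ggt6 and Sult2b1 are the called genes of the other lists.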

How the data were processed

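The series holds 4 Affymetrix mouse arrays, 2 of InvCREER and 2 of K14CREER cells, and 1 table of values. Per the labels' protocols the authors labelled 100 ng of total RNA for an array by a kit that primes at the 3′ end. The submitters' processing notes name RMA and Affymetrix Expression Console 1.1. The deposited values are log2 values, with array medians of 5.41 to 5.44. RMA gives the arrays one distribution and thereby hides any shift common to all genes. The number of arrays limits the precision.

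Of 45101 probe sets 64 controls were set aside, and 22519 with a mean at or above the median were tested. Symbols came from the platform annotation. The lines were compared in R 4.3.3 with limma 3.58.1 (lmFit, then eBayes allowing the variance to follow the mean), 2-sided, with Benjamini-Hochberg adjustment over the tested probe sets and calls at an adjusted p under 0.05. The fit was tested on simulated data. The 10 genes and all lists were chosen with earlier results of these data known. Named genes were the transferases, every called gene of a list plus its largest differences up to 4 per list, and the 5 nearest patterns of the genes with the highest and the lowest difference. Genes without a probe set of their own were not analysed here. Alternatives covered the filter, variance trend, scaling, array weights, each array left out, a replicate block, probe set kind, probe set summary and threshold. Figures were drawn with matplotlib 3.10.9.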

Additional observations from a re-analysis of the deposited data

How the results depend on the processing

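The array number is shared by the lines but nothing in the labels pairs the arrays. Same-numbered arrays deviated together (r = 0.38 across probe sets), which 2 pairs cannot settle, and with the number as a replicate block 1390 probe sets, 17 of the 76 pathway genes and 3 transferase genes (Gsta2, Mgst1 and Mgst2) were called. Against 216 probe sets and 3 pathway genes in the fit reported, the stricter filter on dim probe sets called 405 and 6, with the same 3 transferase genes, the fit without a variance trend 122 and 1, and the threshold of 0.1 called 692 and 9. Quantile normalization called 5 pathway genes, as did leaving out probe sets that can match several transcripts, and the mean of the probe sets of a gene called 8. With 1 array left out the probe sets called ran from 82 (without K14CREER 1) to 981 (without InvCREER 2), with 143 without K14CREER 2 and 499 without InvCREER 1, and the pathway genes from 1 to 14. Those fits take the spread of the lone array from the other line. Ggct was lost without the variance trend, as was Ggt6. Changing the filter, the array weights or the replicate block left each transferase difference as it was, so no sign could change there. Of 118 transferase differences under alternatives, those unchanged ones included, 115 kept their sign. The exceptions were Mgst3 without InvCREER 1 (0.29), Gsta4 without InvCREER 2 (-0.38) and Gsto1 on its other probe set, when those with shared matches were dropped (-0.01). The mean over its probe sets gave 0.55 for Mgst1. The median of the 10 genes ran from 0.08 (without InvCREER 2) to 0.53 (without K14CREER 1), and 6 to 8 of them had higher means.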

Other observations

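Cyp1a1, a cytochrome P450 that the aryl hydrocarbon receptor induces, lay under the filter value by its mean and was not tested. It was at 6.98 and 5.49 on InvCREER 1 and 2, against 4.09 and 4.25 on K14CREER 1 and 2, and it is named here after its values were seen. Both InvCREER arrays were above both K14CREER arrays, InvCREER 1 the further. The receptor gene Ahr was at 9.92 and 10.02 on the InvCREER arrays, against 9.52 and 9.23 on the K14CREER arrays (0.59, adjusted p = 0.243 by limma). It belongs to the list of other xenobiotic enzymes and receptors, where means were higher for 5 and lower for 5. Arnt of that list was level, at -0.00418, and any part of the receptor in these values was not tested. Hpgds, a sigma class transferase that makes prostaglandin D2, also lay under the filter value, at 5.04 and 4.90 in InvCREER, against 4.40 and 4.19 in K14CREER cells.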
